A study of Mus musculus with 15 samples.

Results

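A CG dinucleotide inside a coding sequence can sit in the codon in 3 ways, and each way restricts the amino acids and the flanking bases. The coding CGs of mouse embryonic stem cells were therefore sorted by the codon position of their C, read on the coding strand, and the 5-hydroxymethylcytosine (hmCG) and unmodified CG (uCG) coverage of the 3 classes was compared. Members were the CGs that lay whole in the coding sequence (CDS) of the longest coding transcript of each autosomal protein-coding gene (GENCODE M21 on mm10). There were 989132 of them, or 4.85% of the 20383623 autosomal CGs, in 20640 genes. The C was at codon position 1 in 340329, at position 2 in 255320 and at position 3 in 393483. A further 5226 CGs lay in the CDS of 2 genes and were left out, and 4676 CGs that crossed the edge of a coding exon were not members.

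The cells were the E14TG2a line, grown in serum with LIF. In hmTOP-seq the enzyme BGT glucosylates hydroxymethylated cytosines with an azide-bearing sugar, an oligonucleotide is clicked to it and priming from this tether starts the read at the labelled site; 2 replicate libraries each were made from 500, 50 and 5 ng of DNA, and both strands of a CG were counted together. Control libraries (2 per input) had no BGT step. In uTOP-seq the same logic is applied to unmodified CGs, with 3 replicates of 300 ng, and the 2 strands were counted apart. The labelled libraries held 14884939 to 32502791 reads on all CGs and the controls 3409 to 10072 reads. The labels name no separate cultures, so the replicates measure library to library spread, and p-values over genes measure spread between genes and not between cultures.

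CG methylation of a CDS is maintained by DNMT1 and set by DNMT3A and DNMT3B, and the TET enzymes oxidise 5-methylcytosine to 5-hydroxymethylcytosine. In stem cells hmCG is found in gene bodies and is scarce in CpG islands (CGIs), the dense CG clusters at many promoters, where CGs are mostly unmodified. With C at position 1 the codon is CGN, always arginine. With C at position 2 it is TCG, CCG, ACG or GCG for serine, proline, threonine or alanine, and with C at position 3 the codon ends in C and the next one starts with G.

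The sites with the highest 500-ng coverage in each class are shown first, because they place the 3 kinds of codon in their frame. Each window is read 5′ to 3′ on the coding strand of mm10, starts on a codon boundary and has the CG in capitals. The fifth codon holds the C. The gene and the position of the C come before the window.
Sfi1, position 1: aggagtgttctgCGggaggtggcggcc
Gm10800, position 1: tctcatttttcaCGttttttagtgatt
Cpne6, position 1: tgcctcagccccCGacagcccaaccac
Sfi1, position 2: gctgccttctacaCGtggtacagaggc
Lrp1, position 2: catgtttgtgaccCGaatgtcaagttt
Nfix, position 2: ttcacccaccaccCGctgcctgtgctt
Gm10800, position 3: ctcgccatatttcaCGtcctaaagtgt
Sfi1, position 3: gcccatgcagagcaCGctctccatgca
Gm10801, position 3: cttgccatattccaCGtcctgcactgg
The position 1 site of Sfi1, a centrosome protein gene, at chr11:3143292-3143318 on the minus strand held 287 and 260 reads in the 500-ng replicates, and its arginine codon is CGG. The position 2 site of the same gene (chr11:3146218-3146244, minus, codon ACG) had 265 and 226 reads, and its position 3 site (chr11:3165615-3165641, minus, codon CAC) had 110 and 115. The 2 sites of Gm10800 (chr2:98667094-98667120 and chr2:98667184-98667210, both minus) carried 158 and 165 reads at position 1 and 219 and 239 at position 3. The Gm10801 site on the plus strand (chr2:98662336-98662362) had 110 and 107. For scale, the 99th percentile of all coding CGs, at any distance from a splice site, was 29 reads in the mean of the 500-ng replicates.

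Sense coverage at the Sfi1, Gm10800 and Gm10801 sites was also high in uTOP-seq, whereas antisense coverage was not high at all of them. The Gm10801 site had 56, 56 and 68 sense uCG reads and 0 antisense reads in the 3 replicates, and the position 1 site of Gm10800 had 38, 71 and 104 sense and 2, 3 and 5 antisense reads. The position 2 site of Sfi1 had 103, 108 and 99 sense uCG reads and 129, 115 and 111 antisense reads. Reads of near-identical copies may be gathered at such sites, so their values are uncertain, and their part in the class means is bounded by the fit with reads capped at the 99th percentile, under which the 3 positions of the 4 readouts differed as without the cap, except that antisense position 2 minus 1 now passed the test (0.0127). Sense uCG reads were fewer at the remaining sites, with 13, 8 and 6 at Lrp1 and 10, 6 and 7 at Nfix. These are still not low, as the 99th percentile of all coding CGs was 7.67 sense uCG reads in the mean of the replicates. The Cpne6 site (chr14:55515580-55515606, plus, codon CGA) had 117 and 112 hmCG reads at 500 ng, 51 and 47 at 50 ng and no sense uCG read. The Lrp1 site (chr10:127578548-127578574, minus, codon CCG) had 91 and 94 hmCG reads at 500 ng, and the Nfix site (chr8:84723744-84723770, minus, codon CCG) had 98 and 84. Lrp1 encodes a lipoprotein receptor and Nfix a transcription factor, and the antisense uCG reads of the Nfix site were 0 in the 3 replicates. None of the 9 sites lay in a CGI.

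As measured, position 1 CGs carried the most hmCG. Over 25 nt from a splice site of the transcript (776221 CGs), mean 500-ng coverage was 3.97 and 3.79 reads per CG in the replicates at position 1 (264664 CGs), 3.23 and 3.06 at position 2 (202582) and 3.23 and 3.09 at position 3 (308975). The replicates of position 1 did not overlap those of the other positions, whereas those of positions 2 and 3 did. At 50 ng the means were 2.56 and 2.39, then 2.09 and 1.96, then 2.11 and 2.0 reads per CG, in the same order. Position 2 stood at 0.813 and 0.807 of position 1 in the 500-ng replicates and at 0.815 and 0.818 in the 50-ng ones. Relative to position 1, position 3 was lower on 19 of 19 autosomes (mean ratio 0.825 ± 0.048, SD over autosomes) and so was position 2 (0.821 ± 0.056). The share of CGs with no 500-ng read in either replicate was 33.0% at position 1 and 40.6% at position 2.

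The difference was also found within genes. A two-sided paired t test over genes was used, as the study used for its strand comparisons, on genes with at least 3 CGs of both positions. Position 3 minus position 1 was -0.486 reads per CG at 500 ng (95% CI -0.524 to -0.448, n = 15501 genes, adjusted p = 3.19e-134), and 40.2% of genes lay above 0. Position 2 minus position 1 was -0.360 (-0.405 to -0.316, n = 14115 genes, adjusted p = 6.21e-56). At 50 ng these were -0.278 (n = 15501 genes, adjusted p = 4.66e-85) and -0.227 (n = 14115 genes, adjusted p = 6.80e-43). Positions 3 and 2 differed less, by -0.138 at 500 ng (n = 14339 genes, adjusted p = 4.78e-12, 49.1% of genes above 0) and -0.0543 at 50 ng (n = 14339 genes, adjusted p = 1.73e-04, 49.3% above 0). With every CG weighted alike the difference was not seen at 500 ng, as position 3 lay above position 2 on 10 of 19 autosomes, with a mean ratio of 1.01 ± 0.036. At 50 ng the direction turned, with position 3 above position 2 on 14 of 19 autosomes (mean ratio 1.02 ± 0.036) and by 0.0347 reads per CG (paired t test, n = 19 autosomes, adjusted p = 0.0467).

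**Figure D1:**
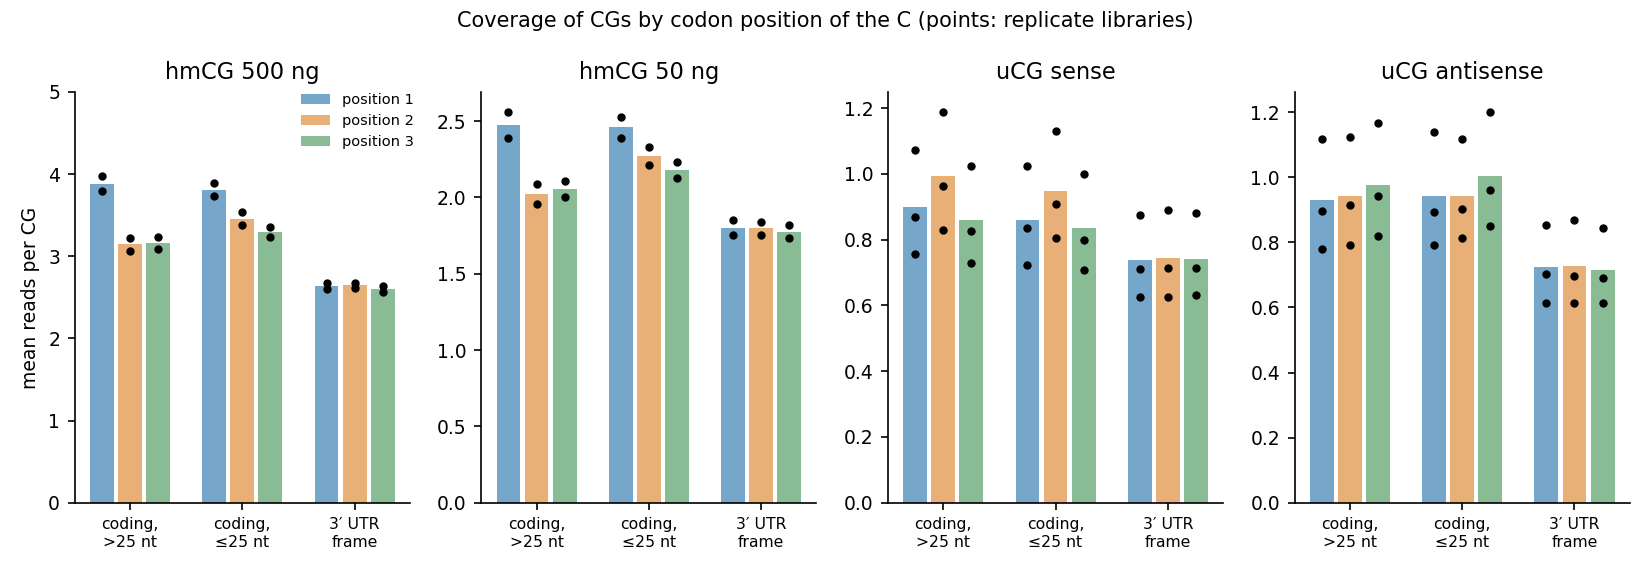
Mean reads per CG (y axis, each panel with its own scale from 0) by codon position of the C for coding CGs over 25 nt and within 25 nt of a splice site and for 3′ UTR CGs with the codon count continued past the stop codon; bars are means and points are the replicate libraries. Position 1 is the highest hmCG bar in both coding groups, and in the 3′ UTR the 3 hmCG bars lie between 2.60 and 2.65 at 500 ng.

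Unmodified CGs were ordered differently, and each strand in its own way. Sense uCG coverage was highest at position 2 with 1.19, 0.962 and 0.828 reads per CG in the 3 replicates. It was 1.07, 0.870 and 0.756 at position 1, and 1.03, 0.825 and 0.728 at position 3. The replicates differ in depth and overlap between classes, but position 2 was the highest in 3 of 3 and on 19 of 19 autosomes against either other position. Over genes, position 2 exceeded position 1 by 0.0962 (n = 14115 genes, adjusted p = 3.90e-51) and position 3 by 0.122 (position 3 minus 2 was -0.122, n = 14339 genes, adjusted p = 3.46e-87). Position 2 lay above position 1 in 53.1% of genes, and position 3 above position 2 in 43.1%. Antisense coverage was highest at position 3 in 3 of 3 replicates (1.17, 0.943 and 0.820), followed by position 2 (1.12, 0.916 and 0.792) and position 1 (1.12, 0.895 and 0.779). Antisense position 3 exceeded position 1 by 0.0437 (n = 15501 genes, adjusted p = 1.71e-13) and position 2 by 0.0344 (n = 14339 genes, adjusted p = 3.32e-08). Antisense position 2 minus 1 was 0.0109 (95% CI -0.00218 to 0.024, n = 14115 genes, adjusted p = 0.102).

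Read coverage of the strands of a CG therefore differed by codon position. In its uCG profiles across genes, not split by codon position, the paper saw no noticeable strand difference. At position 3 sense coverage was below antisense by 0.108 reads per CG (sense minus antisense -0.108, n = 16995 genes, adjusted p = 1.11e-83) and below it on 19 of 19 autosomes. At position 1 the difference was -0.0353 (n = 17206 genes, adjusted p = 1.62e-10), and at position 2 it had the other sign, 0.0360 (n = 15050 genes, adjusted p = 2.04e-07). The share of genes above 0 was 46.2% at position 1, 50.2% at position 2 and 40.6% at position 3, so at position 2 the genes split about evenly. The strand differences shrank when both strands were averaged over the same mix of hexamers (the CG and 2 bases on each side). Each hexamer was read on the strand of its own labelled cytosine. The sense to antisense ratio went from 0.960 to 0.996 ± 0.027 at position 1, from 1.05 to 0.970 ± 0.027 at position 2 and from 0.877 to 0.982 ± 0.026 at position 3 (mean ± SD over 19 autosomes). At position 2 the strand with more coverage thus changed, with 3 of 19 autosomes above 1 in place of 19.

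Past the stop codon the classes lost their order. When the 3-base count was continued into the 3′ UTR of the same transcripts, where no codon is read, 500-ng coverage was 2.67 and 2.60 reads per CG for count 1 (89587 CGs), 2.68 and 2.61 for count 2 (89876) and 2.64 and 2.57 for count 3 (89635). The replicates of the 3 counts overlapped. Sense uCG coverage was 0.738, 0.744 and 0.742 reads per CG over the same counts. At 500 ng count 3 was above count 1 on 8 of 19 autosomes at equal hexamer, with a mean ratio of 0.992 ± 0.039.

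Coding CGs of every class had more hmCG than the introns and the 3′ UTR of their genes. At 500 ng position 1 exceeded the introns by 1.49 reads per CG (95% CI 1.45 to 1.53, n = 16027 genes), position 2 by 1.21 (1.17 to 1.26, n = 14179 genes) and position 3 by 1.05 (1.01 to 1.09, n = 15984 genes). The excess over the 3′ UTR was 0.916 at position 1 (n = 12662 genes, adjusted p = 7.21e-192), 0.585 at position 2 (n = 11548 genes, adjusted p = 1.05e-70) and 0.432 at position 3 (n = 12647 genes, adjusted p = 6.13e-53). The 50-ng libraries gave the same order, with 0.871, 0.690 and 0.619 over introns. Differences in CG density and flanking bases were not equalised in these tests.

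The codon that holds the CG split each class. Among the arginine codons, CGG had 5.75 and 5.45 reads per CG at 500 ng, against 3.27 and 3.13 for CGT, 3.18 and 3.0 for CGC and 2.83 and 2.81 for CGA. CGG alone was set apart, and its 87731 CGs made it the most frequent arginine codon of the class. Among position 2 codons, CCG (proline) had 4.42 and 4.18, ACG (threonine) 3.35 and 3.16, TCG (serine) 2.75 and 2.70 and GCG (alanine) 2.31 and 2.16. The 16 codons of position 3 spanned 1.76 reads per CG for GGC (glycine) to 5.81 for CCC (proline). Next to CCC stood GCC (alanine, 4.58), CAC (histidine, 4.27) and ACC (threonine, 4.06), and next to GGC stood TTC (phenylalanine, 1.95) and CGC (arginine, 2.28). The codon that follows a position 3 C was as variable, from 1.59 reads per CG before GAA (glutamate) to 6.05 before GGG (glycine). CGG and CCG are the same bases read from the 2 strands, and hmCG reads of the strands were counted together. Outside CGIs CCC was again the highest (7.99 reads per CG), but the lowest was TTC (2.19) in place of GGC (2.75), a codon with 45.6% of its CGs in CGIs.

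Sense uCG coverage was spread over codons in its own way. It was highest at CCC (proline, 2.45 reads per CG), CAC (histidine, 1.60) and CCG (proline, 1.49). It was lowest at TTC (phenylalanine, 0.281) and GAC (aspartate, 0.303). The antisense reads were 1.17 at TTC and 1.08 at GAC, above the sense reads, and 0.831 at CCC, below them. Before GGG, antisense coverage was 2.51 and sense coverage 0.723, and before GAA they were 0.243 and 0.849. The strand difference of position 3 CGs thus had both signs, depending on the codon.

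Mean hmCG coverage spread more between contexts of flanking bases than between the 3 codon positions. CGIs and CG density were not held equal between the contexts. Between the 16 contexts of 1 base on each side of the CG, 500-ng means spanned 4.31-fold within position 1, 3.44-fold within position 2 and 3.27-fold within position 3. At position 1 the lowest was TCGA (1.62 reads per CG) and the highest CCGG (6.96), and CCGG was also the highest at position 2 (5.29) and position 3 (5.46). In the 16 contexts position 3 exceeded position 1 in 8 and position 2 exceeded position 1 in 4. Over the 256 hexamers, position 3 lay above position 1 in 120, position 2 above position 1 in 80 and position 3 above position 2 in 185, with median ratios of 0.987, 0.878 and 1.1.

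CG density also differed between the classes. CGIs (found on the genome with at least 200 bp, a G+C share of at least 0.5 and an observed to expected CG ratio of at least 0.6) held 19.5% of position 1 CGs, 32.5% of position 2 and 27.6% of position 3. The median number of CGs within 90 bp, the CG itself included, was 6, 8 and 7. Inside CGIs 500-ng means were 1.91, 1.14 and 1.26 reads per CG for positions 1, 2 and 3, and outside 4.36, 4.11 and 3.88. Position 1 was thus highest in both, by more inside (position 2 to 1 ratio 0.609 ± 0.084) than outside (0.954 ± 0.053, with 3 of 19 autosomes above 1). Coverage of every class rose with the number of CGs within 90 bp to 10 to 14 CGs and then fell. With 1 or 2 CGs it was 1.29, 1.42 and 1.31 reads per CG, so that position 2 was the highest, with 10 to 14 it was 6.45, 5.22 and 5.02, and with 25 or more it was 0.0880, 0.0588 and 0.0626. Sense uCG coverage in the densest group was 0.537, 0.483 and 0.438.

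**Figure D2:**
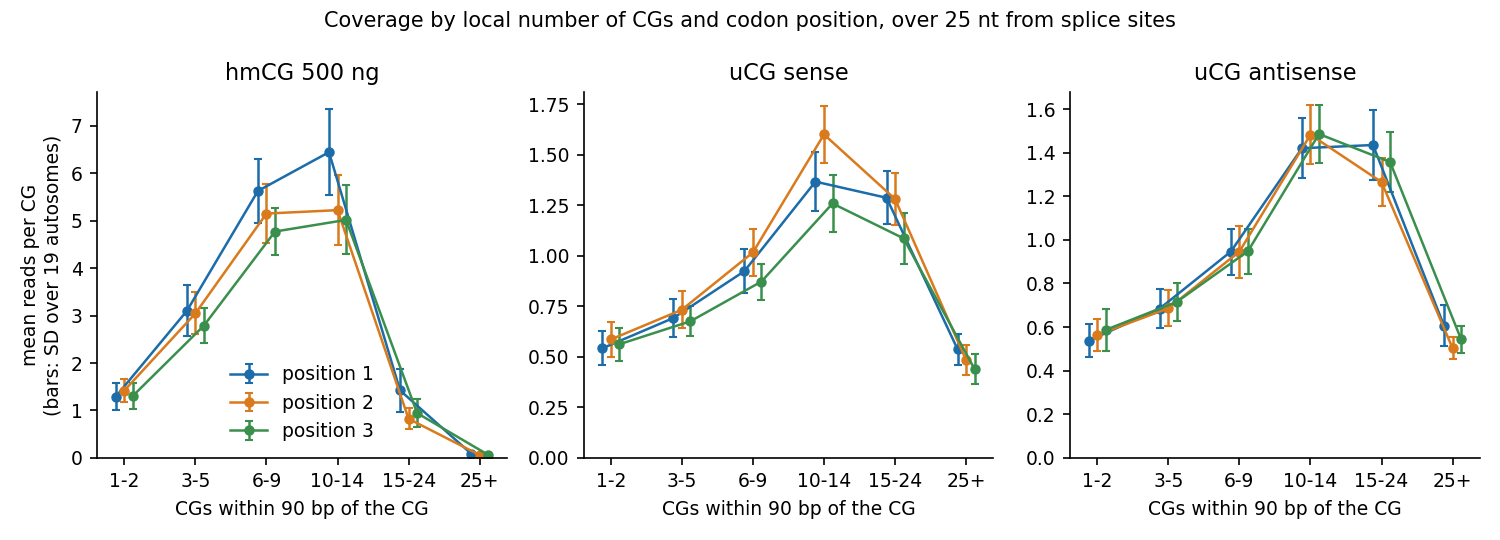
Mean reads per CG (y axis, from 0) against the number of CGs within 90 bp of a coding CG, the CG itself included, for 500-ng hmCG and for both uCG strands; lines are codon positions and bars are SD over 19 autosomes. The hmCG lines peak at 10 to 14 CGs and lie near 0 at 25 or more, where uCG reads remain.

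When hexamer mix and CGIs were held equal, the excess of position 1 over position 2 shrank. That over position 3 shrank too, and it changed sign outside CGIs. At an equal hexamer mix alone, 500-ng position 3 was at 0.899 ± 0.046 of position 1 and position 2 at 0.837 ± 0.053, each below 1 on 19 of 19 autosomes. At an equal hexamer mix outside CGIs, position 3 was at 1.04 ± 0.047 of position 1 (above 1 on 16 of 19 autosomes) and position 2 at 0.981 ± 0.049 (above 1 on 6). In reads, position 3 minus 1 was then 0.132 reads per CG (paired t test, n = 19 autosomes, adjusted p = 0.00312) and position 2 minus 1 was -0.0879 (n = 19 autosomes, adjusted p = 0.0798). At 50 ng the ratios were 1.04 ± 0.053 and 0.994 ± 0.064. With hexamer, CGI and number of CGs within 90 bp all held equal, position 3 was at 0.985 ± 0.041 and position 2 at 0.958 ± 0.046 of position 1 at 500 ng, and of these differences only that of position 2 passed the test. The position 3 to 2 ratio was above 1 under each of these, between 1.03 and 1.08.

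The uCG order changed under the same steps. The sense excess of position 2 over position 3 (ratio of 3 to 2, 0.861 ± 0.033) became 1.0 ± 0.030 at an equal hexamer mix. Positions 2 and 3 then exceeded position 1 on both strands, with ratios of 1.06 ± 0.039 and 1.06 ± 0.037 in sense and 1.08 ± 0.043 and 1.08 ± 0.036 in antisense. With CGI and CG number added, these fell to between 1.02 and 1.05.

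**Figure D3:**
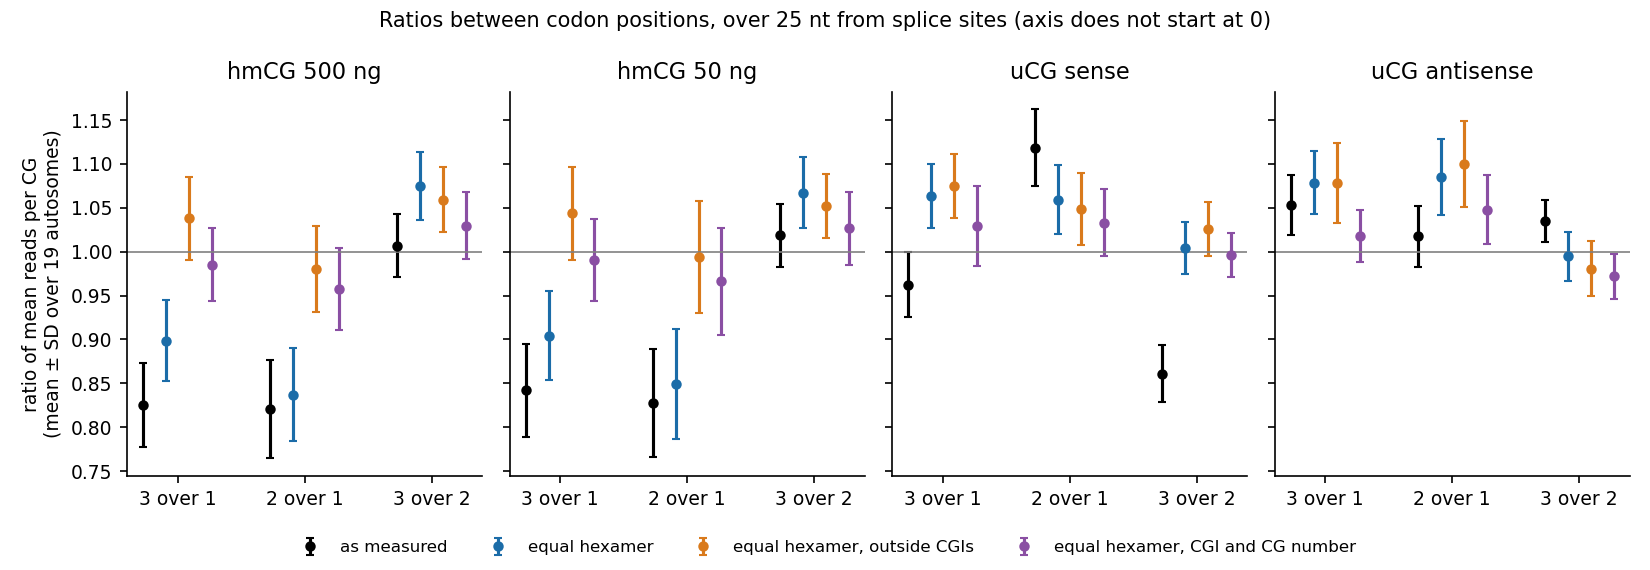
Ratio of mean reads per CG between codon positions (y axis, not starting at 0, with a line at 1) for the 4 readouts, as measured and with the hexamer mix, CGIs and the number of CGs within 90 bp held equal; points are means and bars SD over 19 autosomes. The hmCG ratios to position 1 move from 0.825 and 0.821 as measured to 1.04 and 0.981 at an equal hexamer mix outside CGIs.

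Along the CDS, hmCG rose from the start codon to the stop codon in every class. In the first 10% of the CDS 500-ng means were 2.43, 1.52 and 1.72 reads per CG at positions 1, 2 and 3, and in the last 10% 4.56, 4.21 and 4.04. Position 1 was the highest in each of 10 equal bins, and its lead over position 2 was larger in the first bin (ratio of 2 to 1, 0.641 ± 0.079) than in the last (0.947 ± 0.105). First coding exons held 15.9% of position 1 CGs, 25.3% of position 2 and 21.3% of position 3, with means of 2.38, 1.42 and 1.57. In middle coding exons the means were 4.37, 4.0 and 3.8 and in last coding exons 4.49, 4.06 and 3.88. Sense uCG coverage fell over the same span, from 1.1 to 0.852 at position 1, from 1.07 to 0.955 at position 2 and from 0.964 to 0.829 at position 3.

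**Figure D4:**
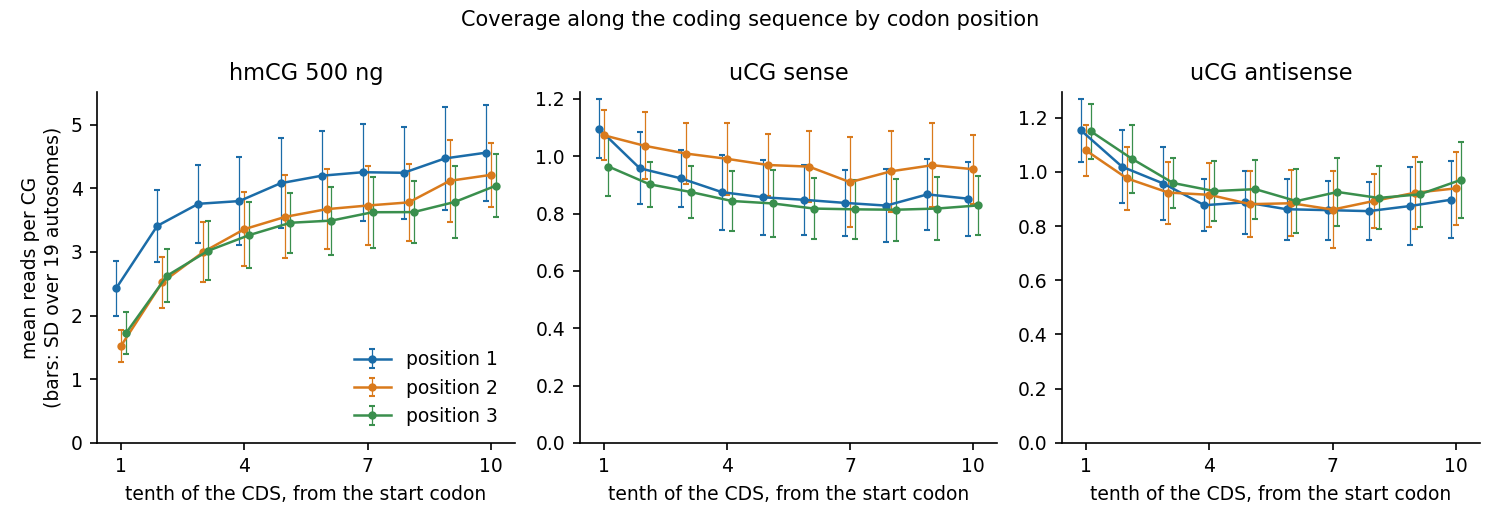
Mean reads per CG (y axis, from 0) in 10 equal bins of the CDS, counted from the start codon, for 500-ng hmCG and both uCG strands; lines are codon positions and bars SD over 19 autosomes. Position 1 leads the hmCG panel from 2.43 in the first bin to 4.56 in the last, and sense uCG coverage is highest in the first bin, at 1.1 for position 1.

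Near splice sites position 2 stood closer to position 1 and farther from position 3. Within 25 nt of a splice site (212911 CGs, 21.5% of the members), 500-ng means were 3.89 and 3.73 reads per CG at position 1, 3.53 and 3.39 at position 2 and 3.35 and 3.24 at position 3. Position 1 remained the highest in both replicates. Within genes, near minus away was -0.138 at position 1 (n = 12903 genes, adjusted p = 2.53e-04), 0.0920 at position 2 (n = 11415 genes, adjusted p = 0.0236) and -0.0718 at position 3 (n = 13534 genes, adjusted p = 0.0283). The share of genes above 0 was 39.9%, 43.3% and 41.6%, so the positive mean at position 2 came with a minority of genes above 0. Genes with equal means near and away were counted as not above, so these shares do not show that most genes fell. At position 3 the call was lost without replicate 1 (-0.0486). At 50 ng the same test gave -0.0665 at position 1 (adjusted p = 0.0134) and 0.0974 at position 2 (adjusted p = 0.00118). Position 3 did not pass it at 50 ng (-0.0130, 95% CI -0.0584 to 0.0325, n = 13534 genes, adjusted p = 0.576). The gap between positions 2 and 1 was narrower near than away by 0.254 reads per CG (n = 9984 genes, adjusted p = 1.88e-05), and at 50 ng by 0.175 (n = 9984 genes, adjusted p = 5.37e-05). Position 3 minus 2 was lower near than away, by -0.179 at 500 ng (n = 10491 genes, adjusted p = 9.70e-04) and -0.141 at 50 ng (n = 10491 genes, adjusted p = 4.19e-04), but outside CGIs neither passed the test (-0.0645 and -0.0789). The gap between positions 3 and 1 changed by 0.0724 (95% CI -0.0216 to 0.166, n = 11424 genes, adjusted p = 0.175). CGIs held 6.8% of near CGs at position 1, 11.7% at position 2 and 10.5% at position 3, fewer than away. Outside CGIs, near minus away at position 2 changed sign to -0.236 (n = 9912 genes, adjusted p = 1.54e-07). At an equal hexamer mix near splice sites, position 3 was at 1.0 ± 0.047 and position 2 at 0.946 ± 0.054 of position 1.

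Antisense uCG coverage rose toward the exon end in every class. In the last 5 nt before a donor, antisense means were 1.32, 1.3 and 1.35 reads per CG at positions 1, 2 and 3, against 0.935, 0.925 and 0.978 at 21 to 25 nt. Sense coverage in the last 5 nt was 0.901, 0.944 and 0.819, so antisense was the higher strand in each class. With the donor and acceptor sides pooled, antisense near minus away was 0.0684 at position 1 (n = 12903 genes, adjusted p = 9.99e-11), 0.0821 at position 2 (n = 11415 genes, adjusted p = 9.99e-11) and 0.100 at position 3 (n = 13534 genes, adjusted p = 8.50e-21). These are means, and only a minority of genes lay above 0 (46.0%, 44.7% and 46.3%), with genes at 0 counted as not above. The 3 differences were not shown to differ from each other, with adjusted p of 0.118 to 0.585 for the difference of differences (n = 9984 to 11424 genes). The sides differed in direction. Over the 25 nt before a donor the antisense means were 1.07, 1.06 and 1.1 at positions 1, 2 and 3, above the 0.931, 0.944 and 0.976 away from splice sites, while those on the acceptor side lay below them. On the acceptor side, sense and antisense means over the 25 nt were 0.802 and 0.821 at position 1, 0.895 and 0.803 at position 2 and 0.803 and 0.891 at position 3. At an equal own-strand hexamer mix the sense to antisense ratio near donors was 0.988, 0.910 and 0.936 for the 3 positions, and near acceptors 1.05, 1.04 and 1.06.

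**Figure D5:**
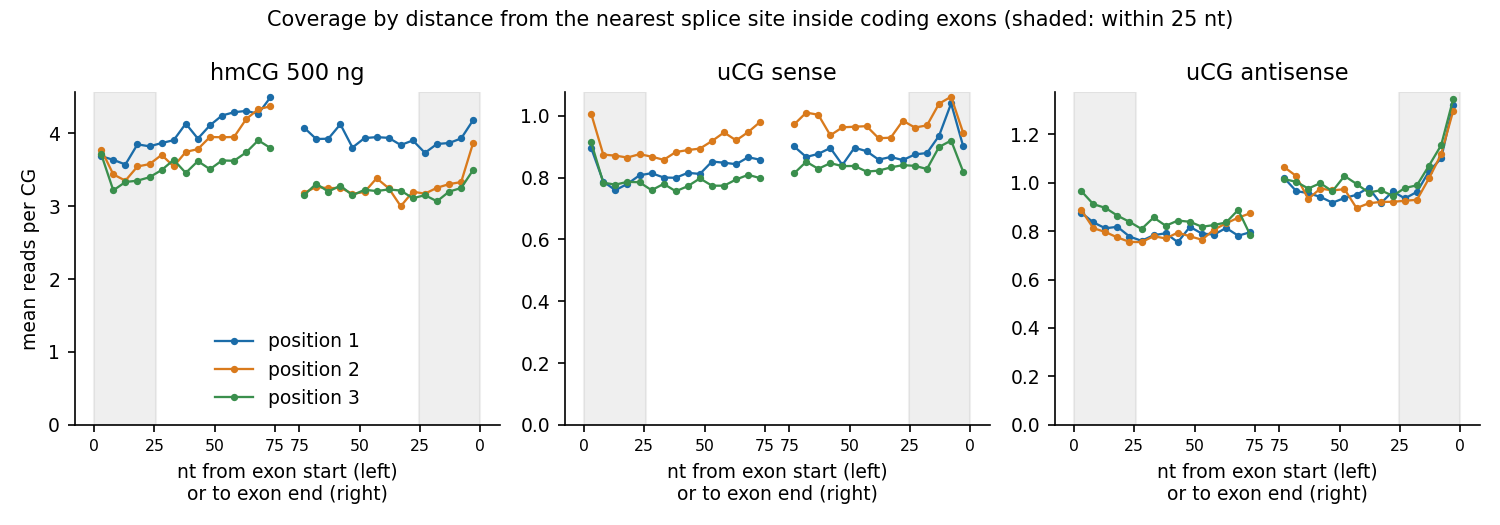
Mean reads per CG (y axis, from 0) in steps of 5 nt from the exon start (left of each panel) and to the exon end (right), each CG assigned to its nearer splice site, for 500-ng hmCG and both uCG strands; lines are codon positions, and the zone within 25 nt is shaded. Antisense uCG coverage reaches 1.3 to 1.35 in the last 5 nt in all classes, and the 500-ng lines of positions 1 to 3 meet between 3.69 and 3.77 in the first 5 nt of the exon.

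Single genes varied around the class means. Of 3253 genes with at least 15 CGs of each position away from splice sites, position 1 was the highest at 500 ng in 1561 (48.0%), position 2 in 945 (29.1%) and position 3 in 747 (23.0%). The genes with the lowest and the highest position 3 minus position 1 difference, of the same sign in both replicates, are a description of the extremes and carry no test. At the low end, Safb (chr17:56584974-56606219, plus) had 11.4 and 10.9 reads per CG over 53 position 1 CGs, 1.93 and 1.60 at position 2 and 1.92 and 1.79 at position 3. Its neighbour and paralogue Safb2 (chr17:56562939-56584585, minus) had 9.45 and 12.3, then 2.96 and 3.84, then 2.07 and 2.67. Both encode nuclear scaffold attachment factors that bind RNA, and reads of paralogues can be shared. Arid1a (chr4:133679008-133753611, minus), a subunit of the SWI/SNF chromatin remodelling complex, had 10.9 and 9.78 over 51 position 1 CGs, 3.46 and 3.36 at position 2 and 1.84 and 1.80 over 115 position 3 CGs. Adcy4 (chr14:55769057-55784042, minus), an adenylyl cyclase gene, had 15.9 and 13.2, then 6.05 and 6.95, then 5.23 and 7.05. In these 4 genes the position 1 replicates lay above all others.

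At the high end, Epb41l3 (chr17:69156810-69289985, plus), which encodes a membrane skeleton protein, had 3.58 and 4.58 reads per CG at position 1, 5.75 and 5.36 at position 2 and 10.5 and 10.4 at position 3. Lhx1 (chr11:84518284-84525535, minus), a homeobox gene, had 3.94 and 4.35, then 8.48 and 8.05, then 10.9 and 9.95. Wdr91 (chr6:34880426-34910876, minus) had 3.25 and 2.55, then 3.24 and 3.65, then 8.58 and 9.58. Ahr (chr12:35497974-35535038, minus), the aryl hydrocarbon receptor gene, had 2.20 and 2.07, then 7.42 and 5.47, then 8.40 and 7.05. In these genes both other positions lay above position 1 except position 2 of Wdr91, whose replicates were 3.24 and 3.65 beside 3.25 and 2.55. The CG with the highest 500-ng coverage at the leading position shows, for all but Safb, the codon it lies in, as in the windows above.
Safb2, position 1: gaggagctgcggCGgcagcaagaacag
Arid1a, position 1: gcgatgggaccaCGgcagcactatccc
Adcy4, position 1: gcctacctggccCGagagatgaaagca
Epb41l3, position 3: gaccagtctgctccCGagcaggaacag
Lhx1, position 3: tcagcggaggtcttCGggcccagtcca
Wdr91, position 3: tccgccccggatatCGgcagcaaaggc
Ahr, position 3: tttctcatgggctcCGtgagcaagtgc
The Safb2 site (chr17:56566382-56566408, minus, the arginine codon CGG) had 51 and 59 reads. It lay in a CGI and had 0 sense uCG reads in 3 replicates, with 15, 13 and 5 antisense reads. The Arid1a site (chr4:133686666-133686692, minus, CGG) had 44 and 33 reads and the Adcy4 site (chr14:55779992-55780018, minus, CGA) 62 and 61. Among the position 3 sites, those of Lhx1 (chr11:84519639-84519665, minus, codon TTC for phenylalanine) with 57 and 50 and Wdr91 (chr6:34889011-34889037, minus, codon ATC for isoleucine) with 55 and 56 had the most. The Epb41l3 site (chr17:69284809-69284835, plus, codon CCC for proline) had 33 and 26 and the Ahr site (chr12:35504667-35504693, minus, codon TCC for serine) 24 and 21.

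The genes that write and oxidise methylation had coding hmCG at all positions and no common order. Tet1 had 4.37 and 4.68 reads per CG at position 1, 7.24 and 7.45 at position 2 and 5.82 and 6.21 at position 3, with no overlap between the classes. Tet2 had 4.79 and 3.89, then 4.61 and 4.27, then 3.43 and 3.0, with position 3 below the others. Tet3 had 6.34 and 7.30, then 7.95 and 6.64, then 6.54 and 5.82, which overlap. Dnmt1, the maintenance methyltransferase gene, had 5.70 and 6.05 at position 1, 4.17 and 5.28 at position 2 and 4.44 and 4.92 at position 3. The de novo genes Dnmt3a (8.10 and 8.50) and Dnmt3b (6.20 and 6.40) were highest at position 2, over 10 and 5 CGs. Uhrf1, which recruits DNMT1, had 5.53 and 5.47 at position 1, 2.60 and 3.90 at position 2 and 4.58 and 5.47 at position 3.

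The pluripotency genes ranged from almost no hmCG in Sox2 to levels above the class mean at position 1 of Esrrb and, at 500 ng only, of Nanog. Sox2 had a 500-ng mean of 0 at positions 1 and 2 in both replicates and of 0.0238 at position 3 in replicate 1, while its sense uCG means were 1.69, 1.61 and 1.74. Pou5f1 had 1.5 and 1.1, then 2.0 and 0.333, then 0.214 and 0.429, over 10, 3 and 14 CGs. Klf4 had 3.57 and 3.21 at position 1, 1.3 and 1.57 at position 2 and 1.47 and 1.33 at position 3. Esrrb had 6.20 and 5.87, then 3.0 and 3.44, then 3.0 and 3.78, so position 1 led in both genes. Nanog had only 2, 3 and 7 CGs in the classes, with 5.50 and 5.00, then 2.33 and 1.67, then 3.57 and 3.0. At 50 ng its position 1 CGs had 0 and 0.5 reads per CG, below the class mean of 2.48. Position 1 was then the lowest of the gene, with means of 0.25, 1.17 and 2.29 at positions 1, 2 and 3.

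Between inputs the 3 classes shifted little against each other, while some sequence contexts shifted. Reads were summed over each combination of codon position and hexamer and compared between 50 and 500 ng with edgeR's quasi-likelihood test. Of 767 combinations with at least 50 reads in every library, 117 (15.3%) were relatively higher at 50 ng and 89 (11.6%) lower at an adjusted p under 0.05. Scaled to total reads on all CGs in place of TMM the split was 56 higher and 173 lower. By codon position, 33 of 256 were higher and 31 lower at position 1, 35 of 255 and 27 at position 2 and 49 of 256 and 31 at position 3. The median log2 fold change was -0.01, 0.02 and -0.01 for the 3 positions. By context the calls leaned one way or the other. Of 48 combinations with TCGA at the centre 32 were higher and 0 lower (median log2 fold change 0.32), and with ACGA 19 were higher and 0 lower (0.20). With CCGG at the centre 2 were higher and 24 lower (-0.13), and with GCGG 2 and 15 (-0.10). The calls needed both 500-ng libraries, since with either left out no combination passed in edgeR, although 69 to 115 were higher and 49 to 88 lower at an unadjusted p under 0.05; DESeq2 on all 4 libraries called 88 and 64. TCGA was also the context with the least 500-ng coverage at position 1.

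The control libraries held few reads but not evenly. Away from splice sites the 500-ng controls had 225 and 227 reads at position 1, 116 and 92 at position 2 and 194 and 205 at position 3. Per 100000 CGs this is 85.0 and 85.8, 57.3 and 45.4, and 62.8 and 66.3, and the exact Poisson 95% intervals of positions 1 and 2 do not overlap (74.3 to 96.9 against 47.3 to 68.7 in the first control). Controls thus ordered position 1 first, as the labelled libraries did. Within 25 nt this order was not seen, with 76.7 at position 1 and 118 at position 2 in the second control. The 50-ng controls did not repeat this order, with 12.1 and 16.6 at position 1, 31.1 and 5.92 at position 2 and 18.8 and 21.0 at position 3. The intervals cover counting error only, and the part of background in the class differences was not tested beyond these values.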

How the data were processed

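hmTOP-seq and uTOP-seq libraries of E14TG2a cells were analysed. The deposited files hold counts, that is whole reads per CG, and not normalised values. For hmTOP-seq the authors set the shortest raw read at 80 nt and the lowest accepted mapping quality at 30, used the mm10 build and removed PCR duplicates by start and length. Details of the uTOP-seq mapping are not given in the sources used here. Both strands of a CG are merged in the hmCG table, while the uCG table lists cytosines with a read, so a cytosine not listed was taken as 0 reads. Positions count from 0 in the files. All 20383623 autosomal entries fell on a CG of the reference after adding 1. The strand label of uCG reads was read at the borders of 343 runs of unknown bases (left border 135 plus and 11 minus reads, right border 15 plus and 266 minus), which makes it the strand of the labelled cytosine.

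Codon frame was taken from GENCODE M21. No chosen transcript broke frame between exons, 24 of 20722 held an internal stop and 17876 had a CCDS entry with start and stop codon. A CG was near when within 25 nt of a splice site of its transcript. CGs without a read were included. In the shares of genes given, genes with equal means were counted as not above. Coverage was averaged over replicates and per gene, and genes with at least 3 CGs of both classes (1 near splice sites) were compared by a two-sided paired t test with Benjamini-Hochberg adjustment within each family of tests (numpy 2.4.6, scipy 1.17.1, pandas 2.3.3). Genes share libraries and are not replicate samples, so replicate values and the mean and SD over 19 autosomes are given as well. Levels at equal context were averages over strata (hexamers with at least 20 CGs in each class) weighted alike for all classes. For 50 against 500 ng, reads summed per codon position and hexamer were tested with edgeR 4.0.16 (TMM, quasi-likelihood, R 4.3.3), with DESeq2 1.42.0 as an alternative. The paired comparison of codon positions over genes, the levels at equal hexamer and the edgeR test were tried on simulated data. Sequences are from the RefSeq assembly of the mm10 build (GRCm38.p6), and named sites leave out chromosome 18. The gene rule took a list of methylation and pluripotency genes and the 4 highest and 4 lowest position 3 minus position 1 differences among genes with at least 15 CGs per class, and the sites rule took, per position, the 3 CGs with the highest lower replicate at 500 ng, 1 per gene. The highest CG of each of the 8 extreme genes was added after the values were seen, and that of 1 gene is not reported here. The classes, lists and tests were chosen with earlier results of these data known. Alternatives were other splice distances and splice site sets, complete transcripts, CGs outside CGIs, other minimum numbers of CGs, autosome means, equal hexamers, detection shares, capped reads, shared CDSs, first exons left out, other scalings and each replicate left out.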

Additional observations from a re-analysis of the deposited data

Results flagged for a closer look

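The gap between codon positions differed between the zones near and away from splice sites in the test of the difference itself. At 500 ng, position 2 minus 1 was 0.254 reads per CG higher within 25 nt of a splice site than away from it (n = 9984 genes, adjusted p = 1.88e-05), and position 3 minus 2 was lower, by -0.179 (n = 10491 genes, adjusted p = 9.70e-04). At 50 ng the values were 0.175 (n = 9984 genes, adjusted p = 5.37e-05) and -0.141 (n = 10491 genes, adjusted p = 4.19e-04). Of these, the 2 values for position 3 minus 2 did not pass the test outside CGIs, as given with the dependence on processing.

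The 5-ng libraries entered no test, and their coverage of the coding CGs is given as a signal in data outside the main comparisons. Away from splice sites they had 1.56 reads per CG at position 1, 1.26 at position 2 and 1.27 at position 3, with replicates of 1.54 and 1.58, 1.25 and 1.27, and 1.27 and 1.28. Position 1 was the highest in both replicates, and positions 2 and 3 were below it on 19 of 19 autosomes. At this input 78.3% of position 1 CGs had no read.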

How the results depend on the processing

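For 56 results, 402 values were computed under alternatives, and 340 kept direction and side of the threshold. Of the others, 27 changed direction. In the same direction, 17 no longer passed the threshold and 12 newly passed it, and 6 counts of calls between inputs moved. The hmCG difference of positions 3 and 1 kept direction and side except under the standardisations outside CGIs and over hexamer, CGI and CG number. That of positions 2 and 1 lost its side of the threshold only under the standardisation outside CGIs. Both standardisations were chosen after seeing the data. At a splice distance of 10 nt, near minus away was -0.0799 (position 1) and 0.0218 (position 3) for 500 ng, -0.0393 and 0.0548 for 50 ng, and 0.0494 for sense position 1. Sense minus antisense at near position 2 was then -0.0991, and the antisense differences between zones were -0.000656 (3 minus 1), -0.0151 (3 minus 2) and 0.0676 (2 minus 1). Outside CGIs, sense 3 minus 1 was -0.00485, antisense 2 minus 1 was 0.0175, and sense minus antisense was -0.00642 (position 1, away) and 0.0292 (position 2, near). There, near minus away was -0.236 (500 ng, position 2), -0.118 and -0.154 (50 ng, positions 2 and 3) and -2.56e-06, 0.00629 and 0.0213 (sense, positions 1 to 3), and the zone difference of 3 minus 2 was -0.0645 (500 ng), -0.0789 (50 ng) and 0.00715 (sense). Antisense 2 minus 1 was 0.0150 with 1 CG per position, 0.0127 with capped reads and 0.00311 as a share of CGs read in every replicate, and by that share hmCG 3 minus 2 was -0.000378 and -0.00234 at 500 and 50 ng. Paired over autosomes, hmCG 3 minus 2 was 0.0167 and 0.0347. At an equal hexamer mix, hmCG 3 minus 2 was 0.220 and 0.129, sense 3 minus 1 was 0.0527, sense 3 minus 2 was 0.00386, antisense 3 minus 2 was -0.00602 and antisense 2 minus 1 was 0.0730. At an equal mix outside CGIs, 3 minus 1, 3 minus 2 and 2 minus 1 were 0.132, 0.220 and -0.0879 for 500 ng and 0.0998, 0.127 and -0.0269 for 50 ng. Sense 3 minus 1 and 3 minus 2 were then 0.0566 and 0.0205, and antisense 3 minus 2 and 2 minus 1 were -0.0177 and 0.0757. With hexamer, CGI and CG number equal, 3 minus 1 and 3 minus 2 were -0.0638 and 0.0932 for 500 ng, -0.0294 and 0.0541 for 50 ng, and 0.0237 and -0.00355 in sense, while antisense 3 minus 2 and 2 minus 1 were -0.0270 and 0.0415. With 1 replicate left out, near minus away ranged from -0.0950 to -0.0486 (500 ng, position 3) and from -0.0995 to -0.0335 (50 ng, position 1), both weakest without replicate 1, and the sense zone difference of 3 minus 1 ranged from 0.0255 to 0.0390. Calls between 50 and 500 ng ranged from 0 to 135 higher and from 0 to 104 lower, with 0 without either 500-ng replicate (a lone library was assumed to vary like the other group), and were 56 and 173 when scaled to total reads. With a replicate block they were 115 and 97. The replicate numbers were not taken as pairs (correlation of deviations 0.103, with 2 pairs). The cause of these shifts was not tested. Depth limits single CGs, since 33.0% of position 1 CGs had no 500-ng read.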

Other observations

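Genes with a single coding exon had lower hmCG at all positions than the middle exons of other genes. Their 500-ng means were 2.44, 2.01 and 2.05 reads per CG at positions 1, 2 and 3, against 4.37, 4.0 and 3.8 in middle exons. Position 1 also led there, with a position 2 to 1 ratio of 0.832 ± 0.134 (SD over 19 autosomes). Sense uCG coverage was 0.879, 1.08 and 0.898 in single coding exons.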
